A study of Mus musculus with 18 samples.

Results

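Histamine is made from histidine by a single decarboxylase, Hdc. Nitric oxide synthases turn arginine into citrulline and nitric oxide, and the inducible synthase is widely used to mark activated myeloid cells. Ornithine feeds the polyamines putrescine, spermidine and spermine through ornithine decarboxylase. The genes described here are 8 that encode the histamine-forming enzyme, inducible nitric oxide synthase and the enzymes and regulators of polyamine turnover: Hdc, Nos2, Odc1, Sat1, Srm, Sms, Azin1 and Oaz1. They were selected on their levels in all 18 libraries, each stimulus against unstimulated cells of the same set of files. Every contrast of these 8, those between stimulated groups included, is therefore given as a description. The edgeR calls counted for them below are not read as tests. All 8 were found among the 55029 genes listed in the files of the IFN-γ and E. coli set and the 54232 genes listed in those of the IL-4 set, of which 54232 were listed in both.

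The cells were peritoneal eosinophils of Il5-transgenic mice (NJ.1638) on the C57BL/6 strain, washed from the peritoneal cavity and purified by negative selection with anti-Thy1.2 and anti-B220 beads (to 95% to 97% by the study, which names mostly lymphocytes as the other cells), then cultured for 18 hours without stimulus or with IL-4 (100 ng/ml), IFN-γ (50 ng/ml), heat-inactivated E. coli, or these bacteria and IFN-γ together. The transgene supplies interleukin 5, the main eosinophil growth factor, to every group, controls included, and the age and sex of the mice are not given in the sources used here. The 18 libraries held 6 unstimulated samples (a to f) and 3 of each of the 4 stimuli, and the study calls its samples biological replicates without saying that they came from separate animals, so p-values measure only the spread between these samples. The libraries fell into 2 sets with different gene lists, 1 with unstimulated a to c, E. coli, IFN-γ and IFN-γ plus E. coli (12 libraries), the other with unstimulated d to f and IL-4 (6 libraries).

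Totals on genes ran from 1523808 to 2734041 counts per library in the set of 12 and from 3625036 to 6482289 in the set of 6. Levels are CPM, counts scaled to a common library total after the trimmed mean of M values (TMM) within a set, and 3 counts, the limit that a count of 0 allows, were worth 1.00 to 2.19 CPM and 0.497 to 0.833 CPM in the respective sets. That limit covers counting error only. In the 12 libraries the highest count of any gene lay between 4089 and 4095, just under the 4096 sequences that a 6-base molecular identifier can take, whereas it reached 87377 to 191131 in the other 6. Counts of abundant genes in the 12 libraries may thus be compressed: the highest count of Nos2 was 2117, or 51.7% of 4096, that of Oaz1 was 1869 (45.6%) and that of Sat1 was 1375 (33.6%), while the other 5 genes stayed at or under 20.4%. Levels are therefore compared only within a set.

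Eosinophil markers were checked against the label. In the 12 libraries the summed level of 8 eosinophil genes ran from 3074 to 5646 CPM, with Ccr3 and Alox15 the most abundant, and in the 6 libraries from 4867 to 6016 CPM, led by Alox15. Ccr3 reached 3576 counts and Alox15 3732 in the 12 libraries (87.3% and 91.1% of 4096), so their order and the sum may be compressed. Of these markers, Epx and Prg3, granule protein genes of maturing eosinophils, stayed at or under 3.66 CPM in every library, while Siglecf, a surface receptor of mouse eosinophils, stood at 322 CPM or more. Markers of other cells were also present. The 11 macrophage genes all passed the low count filter and summed to 1901 to 3762 CPM in the 12 libraries, led by Adgre1, which mouse eosinophils carry too, and to 3243 to 5348 CPM in the 6, led by Lyz2. The 10 neutrophil genes summed to 353 to 744 CPM and 775 to 1999 CPM, led by Retnlg, with Mpo at or under 1.27 CPM in every library. The 7 B cell genes summed to 56.7 to 312 CPM and 55.5 to 147 CPM, led by Igkc, and the 7 T cell genes, led by Cd3d, to 3.68 to 9.32 CPM and 1.81 to 5.55 CPM. Of 3 basophil genes, Cd200r3 held nearly all of a sum of 24.2 to 54.8 CPM and 7.78 to 28.1 CPM, with Mcpt8 at 0 in every one of the 12 libraries. Several sums moved with a stimulus without overlap of the groups. The eosinophil sum was 4238 to 5646 CPM in unstimulated a to c, 3422 to 3912 CPM with E. coli and 3074 to 3479 CPM with both, and in the IL-4 set 4867 to 5062 CPM with IL-4 against 5177 to 6016 CPM. The neutrophil sum was 576 to 711 CPM in unstimulated a to c, 425 to 487 CPM with E. coli and 353 to 435 CPM with both, and 775 to 835 CPM with IL-4 against 1682 to 1999 CPM. The macrophage sum was 2757 to 2812 CPM in unstimulated a to c, 3298 to 3663 CPM with IFN-γ and 2966 to 3762 CPM with both, and 3243 to 3751 CPM with IL-4 against 4215 to 5348 CPM. The B cell sum was 187 to 312 CPM in unstimulated a to c, 56.7 to 121 CPM with E. coli and 84.4 to 163 CPM with IFN-γ, and 112 to 147 CPM with IL-4 against 55.5 to 105 CPM. The basophil sum was lower with IL-4 (7.78 to 13.7 CPM against 18.5 to 28.1 CPM). The T cell sum was lower with IFN-γ (4.48 to 4.61 CPM against 5.78 to 9.32 CPM), though none of the 7 T cell genes was so by itself. The mast cell sums are given with Hdc. The genes of some lists moved in both directions and those of others in a single direction. Of the 7 B cell genes 6 lay lower than in every unstimulated library with E. coli and 6 with IFN-γ, and none higher. Of the 8 mast cell genes 4 lay higher with both stimuli and none lower. The neutrophil sum followed Retnlg (means of 584 CPM in unstimulated a to c, 287 CPM with E. coli and 312 CPM with both, and 1855 CPM in unstimulated d to f and 755 CPM with IL-4), while with E. coli S100a8 went from 8.58 to 72.1 CPM and Cxcr2 from 26.2 to 88.5 CPM, and with IL-4 Cxcr2 went from 3.76 to 32.1 CPM. Of the 8 eosinophil genes only Ccr3 lay lower in every IL-4 library than in every unstimulated one (means of 1301 and 2149 CPM). Another 4, Siglecf, Prg2, Il5ra and Epx, lay higher. In the 12 libraries no gene of that list lay higher than in every unstimulated library under any stimulus. Lower ones numbered 4 under E. coli (with Prg3, near 0), 5 under IFN-γ (with Epx, near 0) and 5 under their combination. Siglecf averaged 1020 CPM in unstimulated a to c, 636 CPM under E. coli, 626 CPM under IFN-γ and 348 CPM under their combination. The eosinophil sum under IFN-γ, 3898 to 4673 CPM, still overlapped that of unstimulated a to c. Of the 11 macrophage genes 4 lay lower and none higher with E. coli. With IFN-γ 5 of them lay higher and 2 lower, with both 2 higher and 1 lower, and with IL-4 2 higher and 5 lower. The share of all genes that lay wholly higher or lower in this way was not counted. By edgeR, 30.2% of all genes tested were called with E. coli, 31.6% with IFN-γ, 49.0% with both and 10.3% with IL-4. The counts of marker genes are thus not read as shifts of cell types. In such bulk samples, fewer cells of a type and less RNA per cell cannot be told apart.

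E. coli replicate 3 stood apart from the other E. coli libraries. Its macrophage sum was 2805 CPM against 2091 and 1901 CPM in replicates 1 and 2, with Lyz2, a lysozyme, at 676 against 360.2 and 344 CPM, and C1qc, a complement subunit, at 244 against 128 and 115 CPM. Its mast cell sum was 35.5 CPM against 11.0 and 8.02 CPM. Log2 fold changes between E. coli and another group, and the interactions of Hdc, Nos2 and Srm, are given below with and without it.

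**Figure D1:**
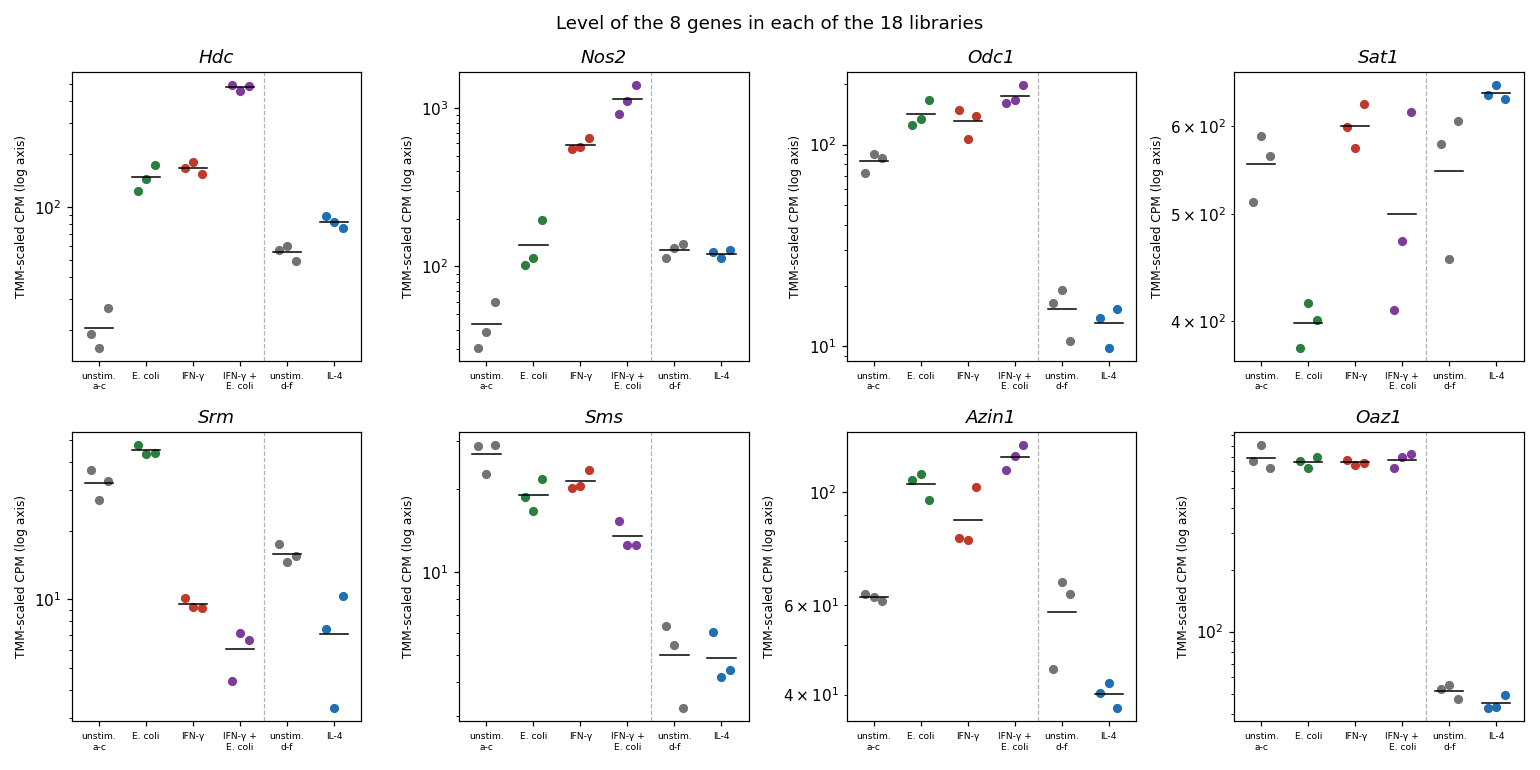
Level of each of the 8 genes in each of the 18 libraries, as TMM-scaled CPM on a log axis; points are libraries, bars are group means, and the dashed line separates the 2 sets. Hdc stood at 457 to 494 CPM in the IFN-γ plus E. coli libraries and at 15.8 to 26.8 CPM in unstimulated a to c.

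Hdc (ENSMUSG00000027360, chr2:126593667-126619299, GRCm38) encodes histidine decarboxylase. Its level was 19.0, 15.8 and 26.8 CPM in unstimulated a, b and c, 123, 145 and 174 CPM with E. coli, 166, 181 and 155 CPM with IFN-γ, and 494, 457 and 488 CPM with IFN-γ plus E. coli. Every stimulated library lay above every unstimulated one, the E. coli and IFN-γ ranges overlapped, and the libraries with both stimuli lay above all others. Against unstimulated cells the log2 fold change was 2.81 ± 0.17 (SE, n = 3 against 3) under E. coli (2.69 ± 0.17 without replicate 3), 3.00 ± 0.17 under IFN-γ and 4.51 ± 0.17 under their combination.

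Between stimulated groups, Hdc stood 2.86-fold higher with IFN-γ plus E. coli than with IFN-γ (log2 1.52 ± 0.14, 1.46 to 1.61 over 13 alternatives) and 3.26-fold higher than with E. coli (log2 1.70 ± 0.14, 1.59 to 1.83 over 13 alternatives), each time with 3 of 3 libraries above all 3. The interaction, the log2 gap between the fold with both stimuli and the product of the separate folds, was -1.29 ± 0.22. On the CPM scale the order was different. The mean with both stimuli, 479.98 CPM, lay under the 1202 CPM that multiplied folds would give and over the 294.5 CPM that added changes would give, so whether the joint level counts as less or more than the separate ones together depends on the scale.

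Mast cells are the best known source of Hdc, and 2 of 8 mast cell genes passed the filter in the 12 libraries. Of the list, Tpsb2, a tryptase, had the highest mean over the 12 libraries, at 4.84, 3.17 and 3.30 CPM in unstimulated a to c and 19.0, 29.0 and 25.1 CPM with IFN-γ plus E. coli. Cma1, a chymase, stood at 2.98, 1.90 and 2.06 CPM unstimulated and at 13.1, 32.9 and 33.0 CPM with both. The whole list summed to 11.2, 8.87 and 7.85 CPM in unstimulated a to c, 11.0, 8.02 and 35.5 CPM with E. coli, 33.0, 15.9 and 15.0 CPM with IFN-γ, and 40.9, 83.3 and 73.2 CPM with both. The library with the highest sum also had the highest Hdc level in the E. coli group (replicate 3, 174 CPM), and not in the other 3 groups. Fcer1a and Ms4a2, subunits of the high-affinity IgE receptor, stayed at or under 2.19 CPM in every library. Their part in the Hdc result was not tested.

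Without E. coli replicate 3, the Hdc difference between both stimuli and E. coli was 1.83 ± 0.14 in log2 and the interaction -1.17 ± 0.21. In the IL-4 set Hdc stood at 57.5, 60.3 and 49.6 CPM in unstimulated d to f and at 89.2, 81.9 and 76.2 CPM with IL-4. The groups did not overlap, and the log2 fold change was 0.56 ± 0.14. The mast cell list summed to 9.998, 7.12 and 7.36 CPM and to 17.9, 8.31 and 23.8 CPM in those libraries, and its part was not tested.

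Nos2 (ENSMUSG00000020826, chr11:78920787-78960254) encodes inducible nitric oxide synthase, which makes nitric oxide from arginine. Its level was 30.6, 38.7 and 59.9 CPM in unstimulated a to c, 103, 113 and 196 CPM with E. coli, 549.7, 568 and 643 CPM with IFN-γ, and 919.5, 1111 and 1396 CPM with both. The 4 groups did not overlap. Against unstimulated cells the log2 fold change was 1.65 ± 0.25 under E. coli (1.33 ± 0.22 without replicate 3), 3.76 ± 0.25 under IFN-γ and 4.73 ± 0.26 under their combination, and the ceiling correction gave 5.15 ± 0.29 for the last.

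Nos2 stood 8.40-fold higher with both stimuli than with E. coli (log2 3.07 ± 0.23, and 3.40 ± 0.22 without E. coli replicate 3) and 1.95-fold higher than with IFN-γ (log2 0.96 ± 0.21), with 3 of 3 libraries above all 3 each time. The interaction was -0.69 ± 0.32 (-1.04 to -0.37 over 18 alternatives), and -0.37 ± 0.27 without E. coli replicate 3.

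Macrophages can also carry Nos2. The macrophage list summed to 2757, 2784 and 2812 CPM in unstimulated a to c, 2091, 1901 and 2805 CPM with E. coli, 3457, 3298 and 3663 CPM with IFN-γ, and 2966, 3051 and 3762 CPM with both. In each of these groups the library with the highest sum, unstimulated c or replicate 3, also had the highest Nos2 level. The part of these cells in the Nos2 result was not tested. With IL-4 Nos2 stood at 123, 113 and 126 CPM against 113, 131 and 138 CPM, overlapping ranges (log2 -0.08 ± 0.13).

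Odc1 (ENSMUSG00000011179, chr12:17544794-17551505) encodes ornithine decarboxylase, the rate-limiting enzyme that makes putrescine. It stood at 72.3, 90.0 and 85.5 CPM in unstimulated a to c, 126, 133 and 166 CPM with E. coli, 149, 107 and 139 CPM with IFN-γ, and 161, 166 and 197 CPM with both. Every stimulated library lay above every unstimulated one. The log2 fold change was 0.78 ± 0.15 for E. coli (0.67 ± 0.15 without replicate 3), 0.67 ± 0.15 for IFN-γ and 1.09 ± 0.15 for the combination.

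Between stimulated groups Odc1 differed by log2 0.41 ± 0.14 for both against IFN-γ (0.27 to 0.51 over 13 alternatives) and 0.31 ± 0.14 for both against E. coli (0.21 to 0.43 over 13 alternatives, the highest, 0.43 ± 0.15, without E. coli replicate 3). At 95% identity over 200 bases or more, 11 other annotated genes resemble Odc1, of which AW146154 held 216 counts over the 12 libraries and 276 over the 6. By the study's methods only uniquely mapped reads were counted, so reads that fit a copy equally well may be missing from the Odc1 level. In the IL-4 set, where Odc1 held only 230 counts over unstimulated d to f and 191 with IL-4, its level was 9.80 to 15.3 CPM with IL-4 and 10.6 to 19.1 CPM without.

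The 2 genes that act on ornithine decarboxylase protein differed. Azin1 (ENSMUSG00000037458, chr15:38487427-38519266), the antizyme inhibitor that protects the enzyme, stood at 63.0, 62.1 and 61.1 CPM in unstimulated a to c, 106, 108 and 96.3 CPM with E. coli, 81.2, 80.5 and 102 CPM with IFN-γ, and 110.3, 117 and 123 CPM with both. The unstimulated libraries lay below all others. The log2 fold change was 0.74 ± 0.12 (0.79 ± 0.13 without E. coli replicate 3), 0.50 ± 0.12 and 0.91 ± 0.12.

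With both stimuli Azin1 stood above IFN-γ in 3 of 3 libraries (log2 0.42 ± 0.12, 0.35 to 0.53 over 13 alternatives), and against E. coli the difference was 0.18 ± 0.12 (0.13 ± 0.13 without E. coli replicate 3). With IL-4 Azin1 stood at 37.6 to 42.2 CPM, below the 45.0 to 66.4 CPM of unstimulated d to f (log2 -0.54 ± 0.17).

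Oaz1 (ENSMUSG00000035242, chr10:80826656-80829290), the antizyme that directs ornithine decarboxylase to degradation, ran from 619 to 802 CPM over the 12 libraries with overlapping groups. Its log2 fold changes against unstimulated cells were -0.07 ± 0.11 (-0.10 ± 0.13 without E. coli replicate 3), -0.07 ± 0.11 and -0.03 ± 0.11. Between stimulated groups it differed by log2 0.04 ± 0.11 (both against IFN-γ) and 0.04 ± 0.11 (both against E. coli, 0.07 ± 0.13 without replicate 3). In the IL-4 set it ran from 42.4 to 55.3 CPM. A processed pseudogene, Oaz1-ps, resembles Oaz1 at 99.7% over 685 bases, so reads that fit both equally well may be missing from the Oaz1 level.

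Of the synthases, Srm (ENSMUSG00000006442, chr4:148591503-148594993), which makes spermidine, stood at 36.9, 27.3 and 33.0 CPM in unstimulated a to c, 47.3, 43.5 and 43.9 CPM with E. coli, 10.1, 9.23 and 9.16 CPM with IFN-γ, and 4.38, 7.12 and 6.59 CPM with both. The 4 groups did not overlap, E. coli being the highest and the combination the lowest. The log2 fold change against unstimulated cells was 0.45 ± 0.15 under E. coli (0.47 ± 0.18 without replicate 3), -1.78 ± 0.20 under IFN-γ and -2.41 ± 0.23 under their combination.

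Srm stood 7.25-fold lower with both stimuli than with E. coli (log2 -2.86 ± 0.22, with 3 of 3 libraries below all 3). Against IFN-γ the difference was -0.62 ± 0.28 (-0.77 to -0.46 over 12 alternatives), on 6 to 18 counts a library. The interaction was -1.08 ± 0.32. Without E. coli replicate 3 the difference from E. coli was -2.87 ± 0.24 and the interaction -1.10 ± 0.35. With IL-4 its level was 7.42, 3.32 and 10.4 CPM, under the 17.5, 14.6 and 15.5 CPM of unstimulated d to f. The log2 fold change there was -1.20 ± 0.35.

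Sms (ENSMUSG00000071708, chrX:157443855-157492287), which makes spermine, ran from 22.8 to 28.9 CPM in unstimulated a to c, 16.7 to 21.7 CPM with E. coli, 20.2 to 23.5 CPM with IFN-γ and 12.5 to 15.3 CPM with both, the last below all others. The log2 fold change was -0.52 ± 0.18 for E. coli (-0.61 ± 0.20 without replicate 3), -0.35 ± 0.18 for IFN-γ and -1.01 ± 0.20 for both. Between stimulated groups it was -0.67 ± 0.22 for both against IFN-γ (-0.76 to -0.60 over 13 alternatives) and -0.49 ± 0.21 for both against E. coli (-0.40 ± 0.23 without E. coli replicate 3). In the IL-4 set Sms ran from 4.15 to 6.09 CPM with IL-4 and from 3.21 to 6.39 CPM without. At the identity and length used for Odc1, 7 other annotated genes resemble Sms, among them Sms-ps at 100% over 1101 bases. Reads that fit such a copy equally well may be missing from its level.

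Sat1 (ENSMUSG00000025283, chrX:155213132-155216449), the acetyltransferase that starts polyamine breakdown, stood at 512, 588 and 564 CPM in unstimulated a to c, 378, 415 and 401 CPM with E. coli, 599, 574 and 628 CPM with IFN-γ, and 409, 472 and 617 CPM with both. The E. coli libraries lay below the unstimulated ones (log2 -0.48 ± 0.13, or -0.47 ± 0.15 without E. coli replicate 3), and combined replicate 3 lay apart from the other 2 of its group. Both stimuli against IFN-γ gave log2 -0.26 ± 0.13 (-0.45 to -0.14 over 13 alternatives, the lowest without combined replicate 3), and against E. coli 0.33 ± 0.13 (0.14 to 0.46 over 13 alternatives, the highest without combined replicate 1 and 0.33 ± 0.15 without E. coli replicate 3). In the IL-4 set it ran from 635 to 653 CPM with IL-4 and from 455 to 606 CPM without. The pseudogenes Gm5552 (96.7% over 515 bases) and Gm46610 (95.8% over 474 bases) resemble Sat1, so reads that fit them equally well may be missing from its level.

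**Figure D2:**
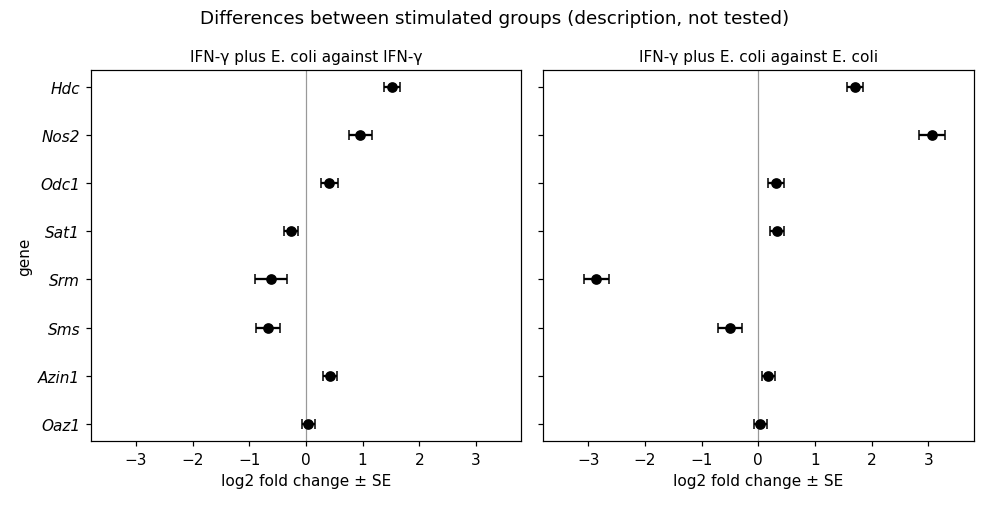
Log2 fold change with its SE (bars) of the 8 genes in the 2 contrasts between stimulated groups, n = 3 libraries a group, as a description without a test. Hdc, Nos2, Odc1 and Azin1 lie to the right in both panels, Srm and Sms lie to the left in both, Sat1 changes side, and Oaz1 lies near 0.

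Counted over the 8 genes, all of which passed the filter in the 12 libraries, the calls of edgeR are a description from which nothing is read. With both stimuli against IFN-γ 3 were called higher (Hdc, Nos2, Azin1), where 6.25% of the 9883 genes tested were called higher and 5.98% lower (12.2% in all). Against E. coli 2 were called higher (Hdc, Nos2) and 1 lower (Srm), where 17.5% and 15.3% of all genes were (32.8% in all). The call of Azin1 was lost without IFN-γ replicate 1 or 2, without combined replicate 2 or 3, without a count filter and with only the compared libraries. Against IFN-γ, Sat1 was added without combined replicate 3, and Sms, as lower (log2 -0.68), with at least 10 counts in every library. Against E. coli, Odc1 was added without E. coli replicate 3 and Sat1 without combined replicate 1 or in DESeq2.

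With E. coli against unstimulated cells 5 were called higher and 2 lower, beside 13.5% and 16.7% of all genes (30.2% in all). Of these calls that of Srm was lost without unstimulated b or c or any E. coli library. That of Sms was lost without unstimulated a or c, without E. coli replicate 1 or 2, and with only the compared libraries. Both calls were also lost in DESeq2 and without a count filter. With IFN-γ 4 were higher and 1 lower, beside 15.6% and 16.0% (31.6%). With both, 4 were higher and 2 lower, beside 23.9% and 25.2% (49.0%), and Sat1 was added without combined replicate 3. With IL-4, all 8 passed the filter and 1, Hdc, was higher, beside 5.97% of 10556 genes called higher and 4.35% lower (10.3%). In the interaction 1, Hdc, was called lower, beside 2.04% of genes called lower and 2.58% higher (4.62%). The IL-4 call was lost without unstimulated f or without any of the 3 IL-4 libraries, while Srm was added without unstimulated e or IL-4 replicate 3 and Azin1 without unstimulated d. The median log2 fold change of the 8 was 0.60, 0.30, 0.44 and -0.14 in the contrasts with unstimulated cells, beside -0.02, -0.03, -0.04 and 0.00 over all genes tested.

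Another 65 genes of these pathways, which the selection did not use, were listed by role, and those that passed the filter, 29 in the 12 libraries and 35 in the 6, were tested. Against unstimulated cells, edgeR called 6 of them higher and 8 lower with E. coli, 6 higher and 7 lower with IFN-γ, 8 higher and 9 lower with both, and 3 higher and 4 lower with IL-4, where 30.2%, 31.6%, 49.0% and 10.3% of all genes were called. With 1 library left out, the 14 called with E. coli ran from 10 to 15, the 13 with IFN-γ from 10 to 14, and the 17 with both from 17 to 18. A call was lost in 6, 4 and 2 of 6 leave-outs. The 7 called with IL-4 were 3 without IL-4 replicate 1 or 3 and 4 without replicate 2. The median log2 fold change of the tested pathway genes was -0.15, -0.27, -0.08 and -0.08. With both stimuli, 8 were higher and 9 lower than with E. coli, where 32.8% of all genes were called. That count of 17 was 11 without E. coli replicate 2 and 12 without replicate 3. Against IFN-γ, 4 were higher and 2 lower, where 12.2% of all genes were called. That count of 6 ran from 4 to 6 with 1 library left out, and 5 of 6 leave-outs lost a call. In the interaction edgeR and DESeq2 each called 0, where 4.62% of all genes were called and 6 of the 29 were under 0.05 in edgeR before adjustment, and edgeR called Gatm and Smox without E. coli replicate 3 (adjusted p = 0.0494 and 0.0171).

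Of 10 listed genes of histamine handling, 1 passed the filter in the 12 libraries, Hrh1, the H1 receptor, at 6.71 to 9.91 CPM in unstimulated a to c, 11.8 to 13.5 CPM with E. coli, 11.8 to 16.2 CPM with IFN-γ and 17.8 to 23.0 CPM with both. It passed under the combination (log2 1.26 ± 0.24, adjusted p = 0.000255) and under IFN-γ (log2 0.71 ± 0.25, adjusted p = 0.0369), a call that was lost without IFN-γ replicate 1 (0.139) or 2 (0.0584) or unstimulated a (0.166). Under E. coli it did not pass (log2 0.60 ± 0.24, adjusted p = 0.0654, and log2 0.66 ± 0.27 without replicate 3). In the 6 libraries 3 of the 10 passed the filter.

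Of 22 listed genes of arginine supply and use, 11 passed the filter in the 12 libraries, with 4 higher and 1 lower under IFN-γ, where 15.6% and 16.0% of all genes were. Ass1, which rebuilds arginine from citrulline, stood at 9.69, 6.97 and 9.09 CPM in unstimulated a to c and at 44.2, 47.7 and 35.3 CPM with IFN-γ, without overlap (log2 2.27 ± 0.27, adjusted p = 2.76e-06). With E. coli it stood at 4.49, 6.69 and 11.4 CPM, and with both at 26.3, 44.9 and 44.2 CPM (log2 2.40 ± 0.28 against E. coli, adjusted p = 1.64e-06, and log2 2.76 ± 0.29 without replicate 3).

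Slc7a2, an importer of cationic amino acids, stood at 149, 96.3 and 158 CPM unstimulated, 226, 237 and 414 CPM with E. coli, 359, 351 and 368 CPM under IFN-γ alone, and 471, 616 and 756 CPM with both. It rose in all 3 (log2 1.10 ± 0.22, 1.40 ± 0.22 and 2.18 ± 0.22, adjusted p = 0.000695, 6.52e-05 and 1.52e-07), and its E. coli replicate 3 was the high one (0.78 ± 0.18 under E. coli without it). With both it was also higher than with E. coli (log2 1.08 ± 0.21, adjusted p = 0.000526, and log2 1.41 ± 0.18 without replicate 3). Slc7a1, which also imports cationic amino acids, and Slc3a2, a heavy chain of amino acid exchangers, rose as well with both stimuli (log2 1.27 ± 0.16, adjusted p = 2.11e-06, and 1.14 ± 0.13, adjusted p = 6.61e-07), Slc3a2 at up to 2881 counts or 70.3% of 4096, so its fold may be compressed, and both fell with IL-4 (log2 -1.03 ± 0.22, adjusted p = 0.0149, and -0.52 ± 0.11, adjusted p = 0.0174). The IL-4 call of Slc7a1 was lost without IL-4 replicate 1 (adjusted p = 0.0838) or 3 (0.0698), and that of Slc3a2 without replicate 1 (0.101), 2 (0.0837) or 3 (0.0625). The neutrophil and macrophage sums were lower with IL-4 too, the first following Retnlg, but the listed genes moved in both directions. Against every unstimulated library, 1 of 10 neutrophil genes lay higher and 2 lower. Of 11 macrophage genes, 2 lay higher (Timd4 and Gata6) and 5 lower. The part of these cells in the IL-4 results was not tested. Among the genes higher with IL-4, Gatm, which makes the creatine precursor from arginine, stood at 26.1, 27.4 and 22.3 CPM against 5.55, 3.98 and 3.96 CPM (log2 2.51 ± 0.23, adjusted p = 0.000134). Prodh, which degrades proline, was higher as well (log2 1.94 ± 0.36, adjusted p = 0.00714). In the 12 libraries, at 22 counts or fewer, Gatm was lower with E. coli (log2 -1.03 ± 0.35, adjusted p = 0.0331, and log2 -1.30 ± 0.40 without replicate 3). That call was lost without unstimulated a (adjusted p = 0.150) or c (0.0931) or E. coli replicate 1 (0.115) or 2 (0.150). With both stimuli Gatm was higher than with E. coli (log2 1.61 ± 0.35, adjusted p = 0.00145, and log2 1.89 ± 0.39 without replicate 3).

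Of 12 genes of nitric oxide synthesis and its cofactor, 5 passed the filter in the 12 libraries, with 3 lower under E. coli, 3 lower under IFN-γ, and 3 lower and 1 higher under the combination, where 16.7%, 16.0% and 25.2% of all genes were lower. Spr, Pts and Qdpr, which make or renew tetrahydrobiopterin, the cofactor of nitric oxide synthases, fell in all 3 contrasts. Pts stood at 79.0, 78.0 and 68.6 CPM unstimulated and at 22.6, 20.3 and 27.0 CPM with both (log2 -1.69 ± 0.16, adjusted p = 9.99e-08), and Qdpr at 67.8, 64.6 and 60.3 CPM and 15.3, 23.6 and 15.2 CPM (log2 -1.81 ± 0.18, adjusted p = 1.59e-07). Gch1, the rate-limiting enzyme of the cofactor, rose with both (182, 227 and 198 CPM against 122, 141 and 151 CPM, log2 0.56 ± 0.12, adjusted p = 0.000712).

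Of 21 genes of polyamine metabolism and use, 12 passed the filter in the 12 libraries. Smox, which oxidizes spermine, stood at 23.5, 19.6 and 21.9 CPM in unstimulated a to c, 32.2, 27.4 and 48.4 CPM with E. coli, 51.5, 63.6 and 53.0 CPM with IFN-γ, and 127, 159 and 178 CPM with both. The 4 groups did not overlap. Against unstimulated cells it rose in all 3 contrasts (log2 0.69 ± 0.21, adjusted p = 0.0167, 1.36 ± 0.20, adjusted p = 4.79e-05, and 2.82 ± 0.19, adjusted p = 7.42e-10), and against each stimulus alone with both (log2 1.46 ± 0.17 against IFN-γ, adjusted p = 1.19e-05, and 2.13 ± 0.18 against E. coli, adjusted p = 2.47e-08). The call under E. coli was lost without E. coli replicate 3 (log2 0.45 ± 0.20, adjusted p = 0.0990), and the difference between both stimuli and E. coli was then 2.38 ± 0.17. With IL-4 it fell, from 34.7, 35.0 and 43.2 CPM to 19.2, 22.3 and 18.4 CPM (log2 -0.91 ± 0.17, adjusted p = 0.00715, or 0.0519 without IL-4 replicate 1).

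Lower with both stimuli than unstimulated were Mri1, Enoph1 and Mtap, which act in methionine salvage, Atp13a2, a lysosomal exporter of polyamines, and Oaz2, a second antizyme (log2 -0.43 ± 0.13, adjusted p = 0.0117, a call lost without unstimulated b, 0.0708, or combined replicate 3, 0.0674). Apip, also of methionine salvage, did not pass (log2 -0.67 ± 0.29, adjusted p = 0.0668, or 0.0371 without combined replicate 3). Mri1 stood at 12.7, 8.24 and 6.19 CPM unstimulated and at 0.730, 1.10 and 0.659 CPM with both (adjusted p = 0.000208), the last on 1 or 2 counts each and under the level of 3 counts there (2.19, 1.64 and 1.98 CPM), so no exact fold is given. Atp13a2 stood at 112, 109.6 and 109 CPM and at 38.7, 43.8 and 32.3 CPM (log2 -1.52 ± 0.16, adjusted p = 2.54e-07), and was lower with E. coli as well (log2 -1.02 ± 0.14, adjusted p = 2.48e-05, and log2 -1.07 ± 0.16 without replicate 3). With IL-4 Azin2, a second antizyme inhibitor, was higher (2.47, 4.32 and 5.70 CPM against 0.555, 0.166 and 0.944 CPM, log2 2.87 ± 0.63, adjusted p = 0.0168), though its unstimulated libraries were near the level of 3 counts and the call was lost without IL-4 replicate 2 (adjusted p = 0.0798) or 3 (0.0798). Dohh, which completes hypusine on a translation factor, was higher with E. coli (log2 0.61 ± 0.18, adjusted p = 0.0139, and log2 0.61 ± 0.20 without replicate 3) and lower with IL-4 (log2 -0.84 ± 0.22, adjusted p = 0.0382). The first call was lost without unstimulated a (adjusted p = 0.112), and the second without unstimulated e (0.0542) or f (0.109) or IL-4 replicate 1 (0.118), 2 (0.105) or 3 (0.125).

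The genes whose log2 CPM followed Hdc, Nos2 and Odc1 most closely over the 12 libraries were sought among the tested genes with a mean of at least 10 CPM, 7922 besides the member. The libraries fall into 4 groups, so the correlations describe the group pattern. For Hdc they were Hsp90ab1, Thbs1 and Slc7a11 (Pearson r of 0.992, 0.990 and 0.989), for Nos2 Cd274, Plin2 and Atf3 (0.992, 0.991 and 0.988), and for Odc1 Gorasp2, Esd and Psmd11 (0.965, 0.963 and 0.955).

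Of the genes with an entry in the promoter table (Hdc, Odc1, Sat1, Sms and Oaz1, and not Nos2, Srm and Azin1), Hdc and Odc1 are shown because each stood higher in every stimulated library of the 12 than in every unstimulated one (RefSeq, GRCm38.p6, 300 bases around the start). Both strands were searched for 8 motifs, with the share of 32851 promoters of the same length that hold each in brackets: TTCNNNGAA (8.30%), TTGCNNAA (10.8%), TATAAA (13.6%), CACGTG (7.15%), TGACGTCA (1.79%), a STAT6 motif of TTC and GAA with 4 bases between (6.95%), an NF-κB motif of GGG and CC with 5 bases between (50.8%) and an interferon response motif of GAAA and GAAA with 2 bases between (3.44%). Hdc, at chr2:126618629-126618928 on the minus strand, held none of the 8, which says only that these letters are not in this window. Odc1, at chr12:17544623-17544922 on the plus strand, held 1 match, to the NF-κB motif, shown in capitals, and none to the other 7.
Hdc: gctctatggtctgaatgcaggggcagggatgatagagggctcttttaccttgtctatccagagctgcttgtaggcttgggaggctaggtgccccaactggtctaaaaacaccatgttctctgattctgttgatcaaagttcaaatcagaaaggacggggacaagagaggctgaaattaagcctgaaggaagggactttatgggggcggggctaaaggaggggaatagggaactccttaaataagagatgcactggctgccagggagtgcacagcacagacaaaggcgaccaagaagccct
Odc1: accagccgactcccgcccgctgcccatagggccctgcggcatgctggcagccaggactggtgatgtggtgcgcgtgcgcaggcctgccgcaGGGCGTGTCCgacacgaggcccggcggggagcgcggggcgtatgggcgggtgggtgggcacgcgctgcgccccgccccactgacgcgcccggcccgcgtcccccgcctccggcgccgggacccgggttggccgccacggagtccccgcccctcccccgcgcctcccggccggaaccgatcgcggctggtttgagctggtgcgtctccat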

How the data were processed

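The 18 libraries were grouped by the submitters' labels. The authors deposited raw counts per Ensembl gene; their methods describe CEL-Seq2 libraries, mapping to GRCm38 with TopHat2 2.1.0 and counting of uniquely mapped reads with HTSeq 0.6.1, and also name fastp 0.20.1 and STAR 2.7.2a. The labels name a CEL-Seq library and a further RNA-seq run without saying which libraries each covers, and whether molecular identifiers were collapsed is not stated. Lines that name no gene held 21.1% to 39.4% of the counts in the 12-library files and were left out of totals; the 6-library files had none. Gene names and positions came from GENCODE M21, which held 98.4% and 99.9% of the listed genes.

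Each set was fitted in edgeR 4.0.16 (R 4.3.3) with filterByExpr, TMM, group means and quasi-likelihood tests, Benjamini-Hochberg adjusted over all genes, with 0.05 as threshold; DESeq2 1.42.0 was an alternative. Differences between stimulated groups were planned as tests of the 8 genes. They are given as a description, and their edgeR calls are not read as tests, since the genes were chosen on levels in all libraries. The fit was tested on simulated data. Alternatives were DESeq2, its size factors in edgeR, other count filters, a factor of 2, a replicate block, only the compared libraries, each library left out and a correction for the counting ceiling, the last chosen after seeing the data. Copies were sought with blastn 2.17.0. The members and lists were chosen with earlier results of these data known, and some of their genes are not reported here and enter no count or median. Named were all members, up to 4 called pathway genes per direction and comparison by size of change, the 3 genes most correlated with Hdc, Nos2 and Odc1, and the most abundant gene of each marker list with those needed to say which are near 0. Hrh1, Siglecf, Cma1, Lyz2, C1qc, Timd4, Gata6, S100a8, Cxcr2, Il5ra, Prg2, Oaz2 and Apip were named after their values were seen. Promoter motifs were chosen with the expression results known and before any match was seen. Levels were computed in Python 3.11.15.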

Additional observations from a re-analysis of the deposited data

Results flagged for a closer look

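Srm stood at 43.5 to 47.3 CPM with E. coli, over the 27.3 to 36.9 CPM of unstimulated a to c, and at 4.38 to 7.12 CPM with both stimuli, under the 9.16 to 10.1 CPM with IFN-γ. The last 2 groups held 6 to 18 counts a library. The gap between these differences was an interaction of -1.08 in log2. Like both differences, it is given only as a description, since the gene was selected on the levels in these libraries. The rule that marks a single library as far from its group needs 4 or more libraries, so it was not applied, and the 6 unstimulated libraries were not pooled because they belong to 2 sets.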

How the results depend on the processing

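The shares of all genes called that are given above belong to the main fit only. Counts below under other settings have no such share beside them, and nothing about the genes is read from them. Scaling edgeR by DESeq2 size factors left the count of called members as it was in all 7 comparisons. No member that was called changed direction. Requiring a change by a factor of 2 gave 2 members in place of 7 and 5 pathway genes in place of 14 with E. coli, 3 members and 6 pathway genes in place of 5 and 13 with IFN-γ, 1 member and 2 pathway genes in place of 3 and 6 with both against IFN-γ, 6 pathway genes in place of 17 with both against E. coli, and 0 members and 4 pathway genes in place of 1 and 7 with IL-4. With IL-4, DESeq2 called 2 members, no filter 3 and at least 10 counts in every library 2. In the interaction, no filter called 2 members, Hdc and Nos2, and DESeq2, like edgeR, called 0 pathway genes, where 6 were under 0.05 in edgeR before adjustment. The cause of these was not tested. With libraries left out, members called with IL-4 ran from 0 to 2, Hdc being lost without unstimulated f or any IL-4 library, pathway genes with IL-4 from 3 to 8, pathway genes with both against E. coli from 11 to 14 in place of 17, and pathway genes in the interaction from 0 to 2. Whether replicate numbers mark shared cells is not stated, and they were not taken to pair the samples. Of same-numbered pairs of stimulated libraries, 4 of 9 had correlated deviations over 0.1 (-0.04 to 0.33). Pairs with different numbers ran from -0.38 to 0.27. The ranges overlap, so these values do not settle whether the samples are paired. With the replicate number as a block, 4 members were called with both against IFN-γ and 4 against E. coli, in place of 3 each, Odc1 and Sat1 being added, and 1 pathway gene in the interaction in place of 0. The correction for the ceiling left every count of called members as it was. Mri1, at 1 to 34 counts in the 12 libraries, is limited by depth.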
